A study of Rattus norvegicus with 8 samples.

Results

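The subunits of respiratory chain complexes II, III, IV and V were examined in rat tibialis anterior, a hind limb muscle of mainly fast fibres. Members were defined by gene symbol, from probe sets of an Affymetrix array that carry a single symbol: Sdha to Sdhd, Cyc1, Cycs, COX2, and symbols starting with Uqcr, Cox4 to Cox8, Atp5f1, Atp5m or Atp5p. The rule was chosen with earlier results of these data known. This gave 45 of 14217 genes with a single symbol, on 49 of 31099 probe sets, namely 4 genes of complex II, 8 of complex III, 18 of complex IV and 15 of complex V. Each gene was read from its brightest probe set. Of the 45, 44 passed a filter on low values that kept 10200 genes. These 44 are called subunits below, although Cox6c-ps1 among them is annotated as a pseudogene. Cox6b2, an isoform of testis, lay below it, with intensities from 1.08 to 26.3. Cycs, cytochrome c itself, was present only on probe sets annotated to several genes and has no value here.

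All rats were adult Sprague-Dawley animals weighing 200 ± 40 g at the start, and each group held 3 males and 1 female. The hyperthyroid group of 4 was given triiodothyronine (T3, the active thyroid hormone) as intraperitoneal doses of 25 µg per 100 g of body mass. A dose was given every 2 days over 6 weeks, and muscle was taken 24 hours after the final one. The control group of 4 was left untreated, so that any effect of the injections themselves cannot be told apart from that of T3. Replicates 1, 2, 3 and 5 are hyperthyroid and replicates 7, 8, 9 and 11 are controls, each a separate rat with its own array, and the labels do not say which arrays are from females.

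Complexes II to V carry electrons to oxygen and use the resulting proton gradient to make ATP. Complex II takes electrons from succinate, complex III passes them from ubiquinol to cytochrome c, complex IV reduces oxygen, and complex V is the ATP synthase. Most subunits are encoded in the nucleus, while a few, among them COX2, are encoded in the mitochondrial genome. Some subunits of complex IV exist in a form of heart and skeletal muscle and a ubiquitous form. Slow and fast oxidative fibres are rich in mitochondria, the fastest fibres poorer, and thyroid hormone is a known regulator of respiration in muscle.

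Values are intensities on a linear scale, brought by the authors' scaling to a common trimmed mean on every array. Array medians ran from 38.8 to 54.9. Of the summed signal, the 100 brightest probe sets made up 22.6 ± 1.18% in hyperthyroid and 26.6 ± 0.880% in control muscle (SD, n = 4 each). Fold changes are hyperthyroid minus control on a log2(intensity + 3.41) scale with limma's standard errors. Adjusted p-values are Benjamini-Hochberg values over all 10200 genes, at a threshold of 0.05, which 7 genes (0.0686%) passed. Precision is limited by having 4 arrays in a group. Markers of fast muscle were bright on all arrays, with a summed intensity of 227064 to 275341 over 8 genes in hyperthyroid and 269832 to 322655 in control muscle, while Nppa and Myh6 of heart muscle lay below the filter. In whole muscle, fewer cells of a kind and less RNA per cell cannot be told apart.

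Subunit transcripts were mostly lower in hyperthyroid muscle, by small amounts, and none of the 44 passed the test. The log2 fold change was below 0 for 36 of the 44, against 50% of all genes, with a median of -0.24 beside -0.00029 over all genes. These directions are relative to the authors' scaling. Scaling to hybridization controls adds 0.32 to every gene, so that the median of all genes was 0.32 and that of the subunits 0.079. In that setting 15 of 44 were below 0. A constant added to every gene cannot change the median of the subunits minus that of all genes, which was -0.24. Quantile normalization, which gives all arrays 1 distribution, can change it. After it the difference was -0.096, with 30 of 44 below 0. All 4 hyperthyroid arrays lay below all 4 control arrays for 10 of the 44 (3.21% of all genes). The reverse held for 2 (3.34% of all genes), Cox7a2l and the pseudogene Cox6c-ps1. Before adjustment, limma gave p under 0.05 for 15 lower subunits (5.21% of all genes) and for 2 higher ones (5.38% of all genes). COX2 had the smallest adjusted p of the 44, 0.0861.

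**Figure D1:**
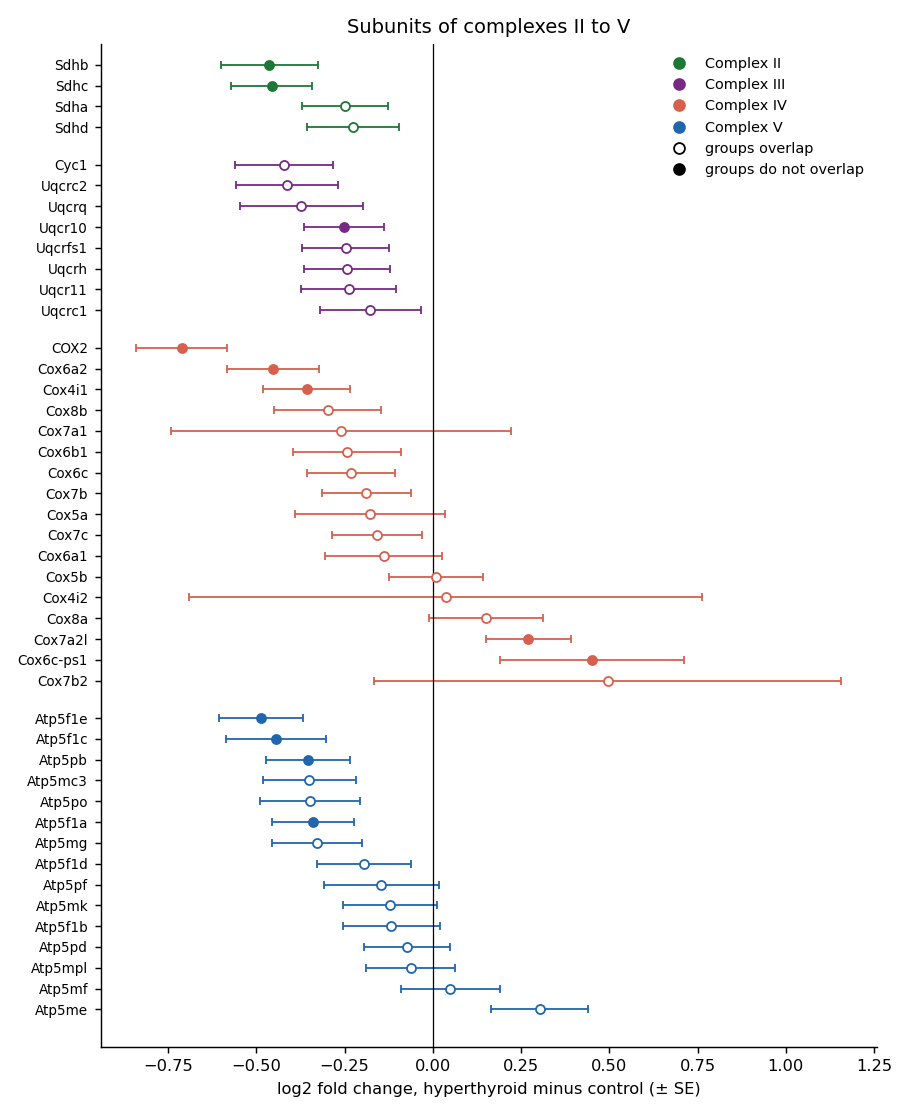
Log2 fold change, hyperthyroid minus control, of the 44 subunits with limma's standard error, grouped by complex. Filled points are the 10 subunits lower and the 2 higher on all 4 hyperthyroid arrays. All members of complexes II and III lie left of 0, and those to the right of 0 belong to complexes IV and V.

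Bright probe sets of other genes were also mostly lower. These other genes were not chosen to be free of mitochondrial or muscle genes. Among them are COX1, also of complex IV, the ADP/ATP carrier Slc25a4 and fast muscle markers such as Tnnc2. The median mean log2 level of the subunits was 13.7, against 7.14 over all genes. Where the mean log2 level was 13 or more, the median log2 fold change was -0.31 over 28 subunits, of which 26 were below 0, and -0.18 over the 97 other genes, of which 77 were below 0. The groups did not overlap, with the hyperthyroid arrays lower, for 9 of these 28 subunits and for 21 of these 97 other genes. At mean log2 levels from 10 to 13, the median was -0.18 over 9 subunits, 7 of them below 0, and 0.013 over 961 other genes, 460 of them below 0. When each array was centred on the 97 other bright genes, a setting chosen after seeing the data, the median of the 44 subunits was -0.13, with 34 below 0. The part of the level of expression in the lower values was not tested beyond these numbers.

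**Figure D2:**
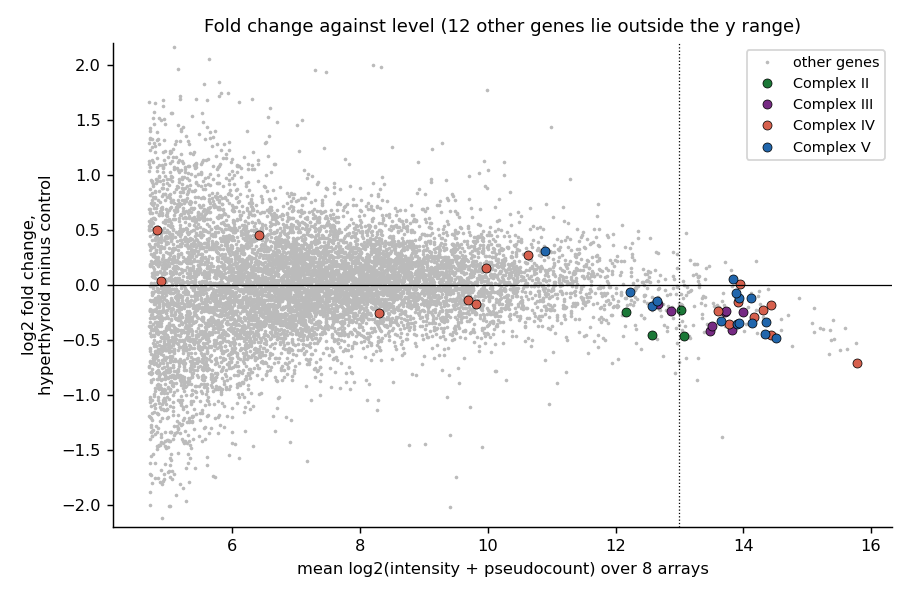
Log2 fold change, hyperthyroid minus control, against mean log2(intensity + pseudocount) over the 8 arrays, for the 44 subunits (coloured by complex) and all other genes tested (grey). The dotted line marks a level of 13, to the right of which 26 of 28 subunits and 77 of 97 other genes lie below 0. The 12 other genes with a fold change beyond 2.2 in size are not shown.

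The arrays of each group were not alike in these transcripts. Relative to the mean of the controls, the median over the 44 subunits was -0.19, -0.17, -0.16 and -0.44 on hyperthyroid replicates 1, 2, 3 and 5. On control replicates 7, 8, 9 and 11 it was 0.071, 0.015, -0.22 and 0.14. Control replicate 9 thus lay below 3 of the 4 hyperthyroid arrays. Hyperthyroid replicate 5 was the lowest array for 33 of the 44 subunits, and control replicate 11 the highest for 25. Without hyperthyroid replicate 5 the median log2 fold change of the subunits was -0.14, those of complexes IV and V were -0.100 and -0.12, and no subunit passed the test. Leaving it out brought 15 of the 44 values nearer to 0 by over 1.5 times and turned the sign of 3. Leaving out control replicate 11 brought 8 nearer to 0 by as much, and leaving out control replicate 9 moved 8 farther from 0.

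Slow-fibre markers (8 of 8 tested, all with a log2 fold change below 0) varied over the same arrays. Their median was -3.00, and 6 of 8 had an unadjusted limma p under 0.05, none of them past the adjusted threshold. Their summed intensity was 574 to 8226 on hyperthyroid and 3647 to 42813 on control arrays. It was highest on control replicates 7 and 11, at 42813 and 29181, and lowest on hyperthyroid replicate 5. Myh7, the slow myosin heavy chain, averaged 56.5 ± 77.3 in hyperthyroid and 2120 ± 2603 in control muscle (SD, n = 4 each). Without both control replicates 7 and 11, the median of the subunits was -0.15, with 34 of 44 below 0, and those of complexes IV and V were -0.084 and -0.066. Smooth muscle markers (4 of 4 tested) summed to 711 to 833 on hyperthyroid and 840 to 1454 on control arrays. The summed ranges of hyperthyroid and control arrays overlapped for markers of Schwann cells (3 genes on the array), adipocytes (5), endothelium (2), macrophages (3) and erythroid cells (2). Fast muscle markers were lower too, with 7 of 8 below 0, a median of -0.36 and 5 at an unadjusted limma p under 0.05. None of them passed the adjusted threshold. Over all genes, 5.21% were lower at such a p, as were 36 of the 97 other genes of a mean log2 level of at least 13. Tnnc2, Tnnt3, Atp2a1 and Ckm, which encode fast troponin chains, a calcium pump and creatine kinase, were lower on all 4 hyperthyroid arrays (3.21% of all genes). What part differences in fibre or cell type have in the subunit values was not tested.

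**Figure D3:**
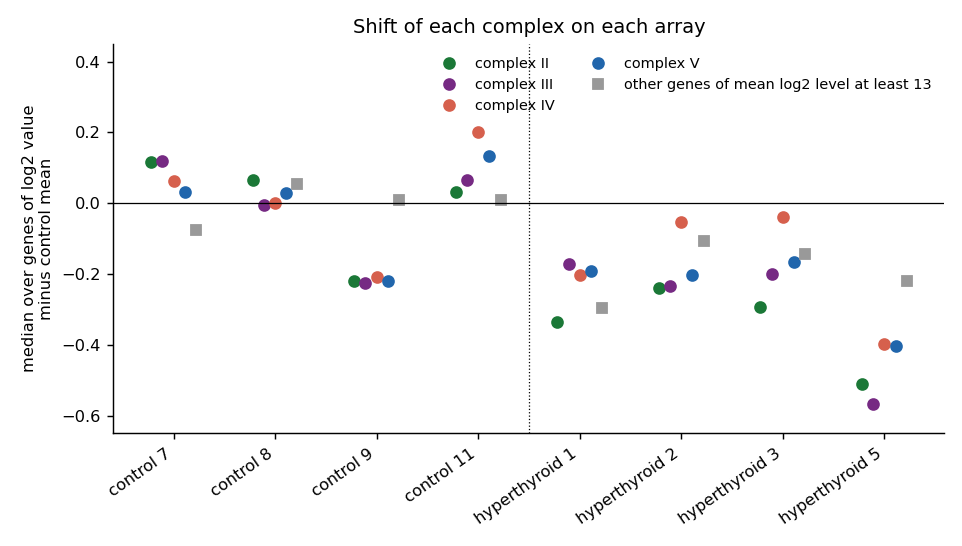
Median over the genes of each complex of the log2 value minus the mean of the control arrays, for each array (4, 8, 17 and 15 genes for complexes II, III, IV and V), with the 97 other genes of a mean log2 level of at least 13 as grey squares. Control replicate 9 lies between -0.22 and -0.21 in all 4 complexes, below at least 1 hyperthyroid array in complexes III, IV and V but above all 4 in complex II, and hyperthyroid replicate 5 is the lowest array in each complex.

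Complex II, succinate dehydrogenase, which also serves the tricarboxylic acid cycle, had all 4 subunits below 0, with a median of -0.35. Sdhc, a membrane anchor, was at 5041, 5399, 5450 and 4969 on hyperthyroid replicates 1, 2, 3 and 5, and at 7064, 7915, 6183 and 7559 on control replicates 7, 8, 9 and 11. Every hyperthyroid array was below every control array, at 0.73 times the control level (log2 fold change -0.46 ± 0.12, limma adjusted p = 0.222). Sdhb, the iron-sulphur subunit, was at 7173, 8161, 7939 and 6069 in the same order, and at 11507, 9412, 8565 and 10998 in controls. These groups did not overlap either (-0.46 ± 0.14, limma adjusted p = 0.273).

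Sdha, the flavoprotein that binds succinate, was at 4384, 4781, 4202 and 3533 on hyperthyroid replicates 1, 2, 3 and 5, and at 5248, 5160, 4990 and 4594 on control replicates 7, 8, 9 and 11. Only hyperthyroid replicate 2 reached into the control range, above control replicate 11 (-0.25 ± 0.12, limma adjusted p = 0.496). Sdhd, the other membrane anchor, was at 7895, 7906, 8590 and 6404 in hyperthyroid and at 10020, 9499, 7652 and 8852 in control muscle. Its groups overlapped through control replicate 9, with -0.23 ± 0.13. A second Sdhd probe set did not overlap, at 5210 to 5842 in hyperthyroid and 6001 to 7603 in control muscle (-0.29 ± 0.12). After quantile normalization, which gives all arrays 1 distribution, the median of complex II was -0.28. Those of complexes III, IV and V were -0.098, 0.0093 and -0.075. The complexes also differ in brightness, with a median mean log2 level of 12.8 for II and 13.6, 13.6 and 13.9 for III, IV and V. After scaling to hybridization controls the medians of II, III, IV and V were -0.033, 0.071, 0.14 and 0.12. The difference between complexes was not tested.

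Complex III, the cytochrome bc1 complex, had all 8 subunits below 0, from -0.42 to -0.18, with a median of -0.25. Cyc1, cytochrome c1, was at 9389, 10991, 10822 and 8492 on hyperthyroid replicates 1, 2, 3 and 5 and at 14524, 12747, 10851 and 15232 on control replicates 7, 8, 9 and 11. Hyperthyroid replicate 2 was above control replicate 9 by a small margin, and the other hyperthyroid arrays were below all controls (-0.42 ± 0.14, limma adjusted p = 0.312). Uqcrc2, a core protein, was at 14545, 12991, 12558 and 10338 in hyperthyroid and at 20335, 15419, 14190 and 17384 in control muscle (-0.41 ± 0.14, limma adjusted p = 0.342). Its second probe set gave -0.10 ± 0.25.

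Uqcr10, a small subunit, was the 1 member of complex III without overlap. It was at 15686, 15094, 15986 and 13411 in hyperthyroid and at 17674, 19077, 16378 and 18424 in control muscle, in the same order of replicates (-0.25 ± 0.11, limma adjusted p = 0.458). The remaining small subunits Uqcrq, Uqcrh (the hinge protein) and Uqcr11 gave -0.37 ± 0.17, -0.24 ± 0.12 and -0.24 ± 0.13. Without hyperthyroid replicate 5, Uqcrq was at -0.19 and Uqcr11 at -0.12. Uqcrfs1, the Rieske iron-sulphur protein, gave -0.25 ± 0.12. Uqcrc1, the other core protein, had the value closest to 0, -0.18 ± 0.14. It was at 6872, 7001, 6212 and 4725 in hyperthyroid and at 7822, 6809, 6098 and 7110 in control muscle, so that the groups overlapped widely. Without hyperthyroid replicate 5 its value was -0.052.

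Complex IV, cytochrome c oxidase, held both the largest and some of the smallest differences. Of its 17 members tested, the pseudogene Cox6c-ps1 among them, 11 were below 0, with a median of -0.18. COX2, the mitochondrially encoded subunit that receives electrons from cytochrome c, was at 41600, 49794, 43038 and 41907 on hyperthyroid replicates 1, 2, 3 and 5. On control replicates 7, 8, 9 and 11 it was at 62611, 70009, 73264 and 83724. The groups were wide apart, with hyperthyroid muscle at 0.61 times the control level. The log2 fold change was -0.71 ± 0.13 (95% interval -0.99 to -0.43), with a limma adjusted p of 0.0861, rank 12 of 10200 by p.

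The difference of COX2 stayed between -0.78 and -0.64 with any 1 array left out, with limma adjusted p from 0.11 to 0.347. With a robust variance estimate it passed (limma adjusted p = 0.0176). After quantile normalization it was -0.10 (limma adjusted p = 0.685). The probe set gave the highest signal of all on each control array, where quantile normalization sets the value. Whether its signal was saturated was not examined. COX1, another mitochondrially encoded subunit and not a member by symbol, gave -0.53 ± 0.12 with no overlap between groups, at 43858 to 52320 in hyperthyroid and 60731 to 73155 in control muscle. It was singled out after its values were seen.

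**Figure D4:**
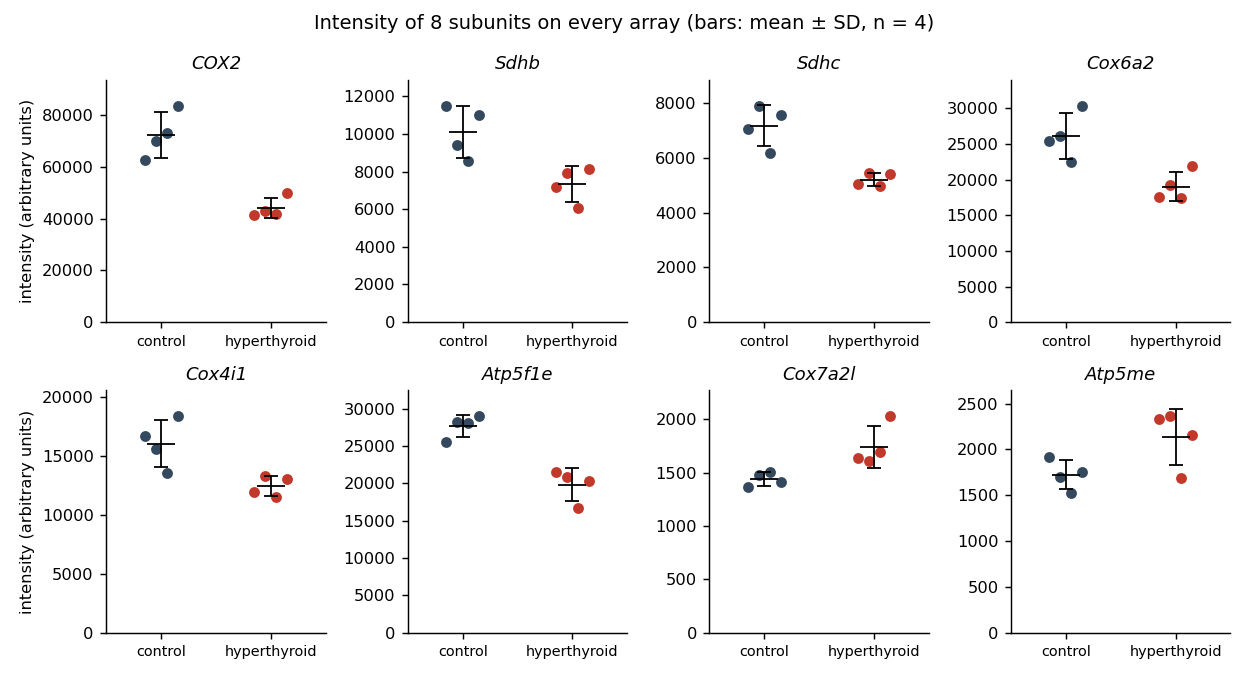
Intensity of 8 subunits on each array, controls in blue-grey and hyperthyroid rats in red, with the mean ± SD of 4 arrays, and axes starting at 0. COX2, Sdhb, Sdhc, Cox6a2, Cox4i1 and Atp5f1e were lower on all 4 hyperthyroid arrays, Cox7a2l was higher on all 4, and Atp5me was higher on 3 of them.

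Nuclear-encoded subunits of complex IV had a median of -0.17 over 16 genes. Cox4i1, the ubiquitous form of subunit 4, was at 11941, 13068, 13314 and 11551 on hyperthyroid replicates 1, 2, 3 and 5 and at 16647, 15614, 13547 and 18347 on control replicates 7, 8, 9 and 11. The groups did not overlap, although control replicate 9 was close (-0.36 ± 0.12, limma adjusted p = 0.336). Values nearer to 0 than that of Cox4i1 were found for Cox6b1 at -0.24 ± 0.15, Cox6c at -0.23 ± 0.12, Cox7b at -0.19 ± 0.13 and Cox7c at -0.16 ± 0.13. Cox5b, another nuclear subunit, had 0.0092 ± 0.13, with a 95% interval from -0.28 to 0.30. Its arrays covered 13546 to 17438 in hyperthyroid and 13195 to 18309 in control muscle. Cox5a gave -0.18 ± 0.21, with 1423 on hyperthyroid replicate 3 and 669 to 774 on the other 3. Without that array it was -0.43. A probe set annotated to both Cox5a and LOC100361008, and so not counted here, gave -0.34 ± 0.12 with no overlap, at 15142 to 17957 in hyperthyroid and 19235 to 22994 in control muscle.

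A few members of complex IV were above 0. Cox7a2l, which takes part in joining complexes III and IV into supercomplexes, was at 1641, 2026, 1605 and 1693 on hyperthyroid replicates 1, 2, 3 and 5. On control replicates 7, 8, 9 and 11 it was at 1361, 1473, 1509 and 1408, so that all hyperthyroid arrays were higher (0.27 ± 0.12, limma adjusted p = 0.455). This gene and the next were picked for description after their values were seen. Cox6c-ps1, annotated as a pseudogene of Cox6c, was higher on all hyperthyroid arrays at low intensities, 84.2 to 119 against 58.8 to 80.1. Which Cox6c-like transcripts that probe set detects was not tested.

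Cox7b2, a form known from testis, had the highest log2 fold change of the complex with no precision, 0.50 ± 0.66. It was at 33.9, 19.4, 46.3 and 26.1 in hyperthyroid and at 45, 15.2, 31.3 and 6.70 in control muscle. Cox4i2, a form of lung, was similarly dim, with 0.037 ± 0.73, and neither value carries a direction.

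The muscle-type isoforms of complex IV were compared with their ubiquitous counterparts through the ratio within each array. Scaling by a single factor per array leaves that ratio nearly as it is, while a shift that depends on brightness can change it. The mean log2 level was 14.4 for Cox6a2 and 14.2 for Cox8b, against 9.69 for Cox6a1 and 9.97 for Cox8a. Fold changes of other genes centred on -0.18 (log2 median) at levels of 13 or more and on 0.013 from 10 to 13. The part of brightness in the isoform ratios was not tested. Cox6a2, the heart and muscle form of subunit 6a, was at 17582, 21857, 19256 and 17447 on hyperthyroid replicates 1, 2, 3 and 5 and at 25405, 26164, 22474 and 30386 on control replicates 7, 8, 9 and 11. The groups did not overlap (-0.45 ± 0.13, limma adjusted p = 0.261). Cox6a1, the ubiquitous form, was at 951, 721, 840 and 651 in hyperthyroid and at 868, 935, 676 and 1008 in control muscle (-0.14 ± 0.17). Its groups overlapped widely, with only hyperthyroid replicate 5 below all controls. The log2 ratio of Cox6a2 to Cox6a1 was 4.59 ± 0.31 in hyperthyroid and 4.91 ± 0.10 in control muscle (SD, n = 4 each). This is a difference of -0.31 (exact permutation p = 0.114, two-sided), with hyperthyroid replicate 2 inside the control range.

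Cox8b, the heart and muscle form of subunit 8, was at 16596, 18551, 17309 and 14309 in hyperthyroid and at 21280, 19955, 15856 and 25831 in control muscle, in the same order of replicates. Cox8a, the ubiquitous form, was at 1143, 1075, 1077 and 930 in hyperthyroid and at 1067, 772, 810 and 1213 in control muscle. Taken alone, both overlapped between groups (-0.30 ± 0.15 and 0.15 ± 0.16). The log2 ratio of Cox8b to Cox8a was 3.86, 4.11, 4.003 and 3.94 on the hyperthyroid arrays and 4.31, 4.69, 4.28 and 4.41 on the control arrays.

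All 4 hyperthyroid ratios of Cox8b to Cox8a were below all 4 control ratios. The mean was 3.98 ± 0.11 against 4.42 ± 0.18 (SD, n = 4 each), a difference of -0.45 (two-sided p = 0.0286 by exact permutation, which is the minimum for 4 against 4 arrays). Adjusted over the 2 pairs measured, p was 0.0571 by the exact permutation test, which did not pass 0.05. With 4 against 4 arrays neither pair can pass unless both reach that minimum. The failure to pass was thus set in part by the number of arrays. Without hyperthyroid replicate 2, the array inside the control range for subunit 6a, both pairs reached an adjusted p of 0.0286 by exact permutation. That is the minimum with this array left out. After quantile normalization, which moves bright and dim probe sets by different amounts, the differences were -0.17 for subunit 8 and -0.033 for subunit 6a. Their adjusted p was 0.343 and 0.886 by exact permutation. Cox7a1, the muscle form of subunit 7a, was at 420, 452, 387 and 87.7 in hyperthyroid and at 646, 345, 174 and 348 in control muscle (-0.26 ± 0.48), and its value was 0.29 without hyperthyroid replicate 5. Its ubiquitous partner has no probe set of its own, so that pair was not compared.

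**Figure D5:**
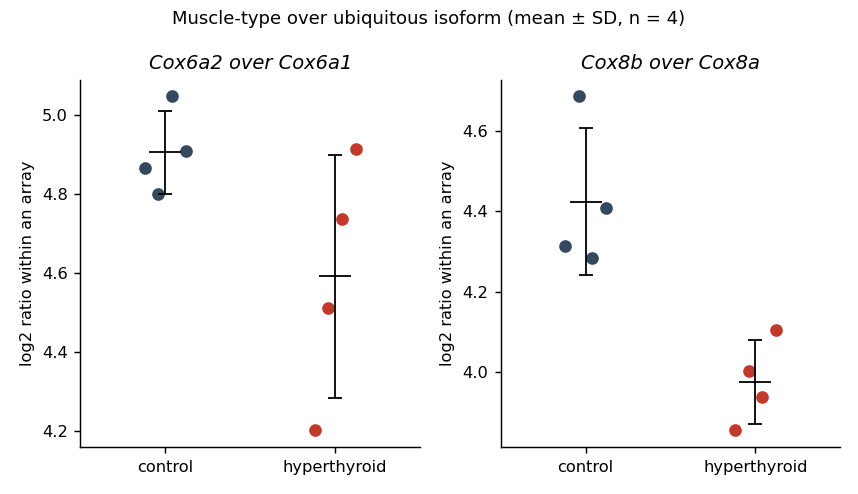
Log2 ratio of the muscle-type to the ubiquitous isoform within each array, for subunits 6a (left) and 8 (right), with the mean ± SD of 4 arrays; the axes do not start at 0. The ratios of Cox8b to Cox8a do not overlap between groups (3.86 to 4.11 against 4.28 to 4.69), while 1 hyperthyroid array lies within the control range for Cox6a2 to Cox6a1.

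Complex V, the ATP synthase, had 13 of 15 subunits below 0, with a median of -0.20. With 1 array left out this median ran from -0.31 (without control replicate 9) to -0.12 (without hyperthyroid replicate 5). It was above 0 after centring on array medians (0.026) and after scaling to hybridization controls (0.12). In the rotating central part, Atp5f1e, the epsilon subunit, was at 21592, 20306, 20858 and 16656 on hyperthyroid replicates 1, 2, 3 and 5 and at 25603, 28184, 28098 and 28981 on control replicates 7, 8, 9 and 11. The groups were well apart (-0.49 ± 0.12, limma adjusted p = 0.221). Atp5f1c, the gamma subunit, was at 18353, 18928, 19014 and 15353 in hyperthyroid and at 26045, 24282, 19091 and 28829 in control muscle. Its groups did not overlap, but control replicate 9 was only just above the hyperthyroid arrays (-0.44 ± 0.14, limma adjusted p = 0.304). Atp5f1d, the delta subunit, gave -0.20 ± 0.13.

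The subunits of the catalytic head had different values, a difference that was not tested. Atp5f1a, the alpha subunit, was lower on all hyperthyroid arrays, at 16406 to 20519 against 22289 to 25878 (-0.34 ± 0.12). Atp5f1b, the catalytic beta subunit, covered 12593 to 17371 in hyperthyroid and 13304 to 17854 in control muscle (-0.12 ± 0.14). In the peripheral stalk, Atp5pb, subunit b, was at 14554, 13978, 13408 and 12042 on hyperthyroid replicates 1, 2, 3 and 5 and at 16468, 17385, 15588 and 19666 on control replicates 7, 8, 9 and 11. These groups did not overlap (-0.35 ± 0.12, limma adjusted p = 0.323). Atp5po, which links the stalk to the head, gave -0.35 ± 0.14, while Atp5pf and Atp5pd gave -0.15 ± 0.16 and -0.073 ± 0.12. A second, much dimmer Atp5po probe set (mean log2 level 6.04) gave -0.036 ± 0.33.

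Among the membrane subunits, Atp5mc3, 1 of the genes for the proton-carrying c ring, gave -0.35 ± 0.13, and Atp5mg, subunit g, gave -0.33 ± 0.13. Atp5mk, Atp5mpl and Atp5mf lay near 0, at -0.12 ± 0.13, -0.063 ± 0.13 and 0.049 ± 0.14. Atp5me, subunit e, which helps the enzyme form dimers, had the highest value of the complex. It was at 2332, 2161, 2360 and 1693 in hyperthyroid and at 1913, 1698, 1530 and 1748 in control muscle. Hyperthyroid replicates 1, 2 and 3 were above all controls and replicate 5 was within their range (0.30 ± 0.14, limma adjusted p = 0.464).

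Genes that assemble the complexes or exchange substrates with them were split about evenly around 0. Most of those tested were dimmer than the subunits, whose median mean log2 level was 13.7, and the part of level in this was not tested. Of 47 listed genes, 42 were tested, 23 of them below 0 and 19 above, with a median of -0.023, and none passed limma's adjusted threshold in either direction. Before adjustment, 3 lower genes and no higher gene had a limma p under 0.05 (5.21% and 5.38% of all genes). Slc25a4, the ADP/ATP carrier of heart and muscle, was at 28823 to 33763 on hyperthyroid and 37961 to 44790 on control arrays (-0.43 ± 0.12, limma adjusted p = 0.239). Cox19, a copper-related assembly factor of complex IV, was at 807 to 971 against 1085 to 1283 (-0.44 ± 0.13, limma adjusted p = 0.256). Coa3, another assembly factor of complex IV, was at 498 to 606 against 649 to 798 (-0.43 ± 0.14, limma adjusted p = 0.304).

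The groups did not overlap in these 3 genes. The same held for Vdac2, a channel of the outer membrane, lower at 5363 to 5923 against 6049 to 7266, and for Atpaf2, an assembly factor of the ATP synthase, higher at 352 to 431 against 190.2 to 339. Vdac2 was named after its values were seen. Over all genes, the hyperthyroid arrays were all lower for 3.21% and all higher for 3.34%. The smallest p above 0 belonged to Atpaf2 (0.39 ± 0.20), Cox16 (0.32 ± 0.17) and Ttc19, a factor of complex III (0.39 ± 0.23). Atp5if1, the inhibitor of the ATP synthase, gave -0.0045 ± 0.14. By list, medians were 0.0079 for complex II assembly (4 genes), -0.12 for complex III (5), -0.031 for complex IV (20), -0.0045 for complex V (5), 0.058 for supercomplex factors (2) and -0.17 for carriers and channels (6).

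Promoters of respiratory subunits are known for sites of NRF1, ETS factors such as GABP, and YY1. Windows from 250 bases before to 50 after the start in RefSeq (GRCr8) were at hand for 36 of the 44 subunits. The ETS motif CCGGAAG was found on either strand in 13 of the 36 (36.1%), against 8.75% of all 33469 windows. The NRF1 motif, GCGCA and GCGC with 1 base of any kind between them, was found in 7 (19.4% against 4.25%) and the YY1 motif AAGATGGC in 7 (19.4% against 3.17%). CCAAT was found in 12 (33.3% against 37.5%), and a repeat read by thyroid hormone receptors, AGGTCA copied in the same direction 4 bases on, in none (0.00598% of all windows). Of the 9 subunits with a window that were lower on all 4 hyperthyroid arrays, 3 held the ETS motif, 1 NRF1 and 1 YY1. A match is a description of the letters and not a site.

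The windows below, 250 bases up to the start, show the muscle-type isoforms Cox6a2 and Cox8b, the ubiquitous Cox8a, and Sdhb and Atp5me, whose values lay on opposite sides of 0. Capitals mark matches to these motifs and to MEF2, a motif of muscle genes, on either strand. They lie at chr1:192219717-192219966 (minus strand), chr1:205408274-205408523 (minus), chr1:213833624-213833873 (minus), chr5:158547684-158547933 (plus) and chr14:1464610-1464859 (plus), and are written 5′ to 3′ on the gene's strand.
Cox6a2: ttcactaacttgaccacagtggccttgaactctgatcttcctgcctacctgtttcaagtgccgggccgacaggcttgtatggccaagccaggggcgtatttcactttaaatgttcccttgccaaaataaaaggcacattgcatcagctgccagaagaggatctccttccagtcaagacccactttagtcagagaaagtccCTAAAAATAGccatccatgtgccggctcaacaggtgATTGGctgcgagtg
Cox8b: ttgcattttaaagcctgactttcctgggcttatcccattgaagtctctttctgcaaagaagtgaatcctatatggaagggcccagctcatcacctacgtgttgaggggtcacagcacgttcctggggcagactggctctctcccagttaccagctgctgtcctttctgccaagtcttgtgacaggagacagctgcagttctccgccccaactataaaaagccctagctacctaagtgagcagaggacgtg
Cox8a: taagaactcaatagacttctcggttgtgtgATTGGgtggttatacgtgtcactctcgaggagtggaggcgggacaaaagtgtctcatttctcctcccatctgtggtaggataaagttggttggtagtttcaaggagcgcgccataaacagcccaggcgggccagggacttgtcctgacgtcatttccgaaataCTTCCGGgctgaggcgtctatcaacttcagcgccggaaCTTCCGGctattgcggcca
Sdhb: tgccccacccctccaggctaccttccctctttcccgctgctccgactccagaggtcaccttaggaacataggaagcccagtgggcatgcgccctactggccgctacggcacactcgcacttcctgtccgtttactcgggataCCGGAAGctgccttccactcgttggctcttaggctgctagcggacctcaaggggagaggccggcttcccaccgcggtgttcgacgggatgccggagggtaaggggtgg
Atp5me: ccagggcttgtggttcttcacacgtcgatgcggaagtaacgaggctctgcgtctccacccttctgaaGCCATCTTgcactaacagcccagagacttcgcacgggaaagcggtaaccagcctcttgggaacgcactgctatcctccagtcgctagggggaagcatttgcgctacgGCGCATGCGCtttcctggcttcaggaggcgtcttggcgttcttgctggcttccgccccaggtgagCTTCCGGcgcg

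Of the 36 windows, that of Cox6a2 alone held the MEF2 motif, from base -50 to -41 before the start, against 1.87% of all windows. Cox8b, the other muscle form, held none of the motifs searched. Cox8a held ETS matches from -57 to -51 and from -19 to -13, a CCAAT match, and a YY1 match that runs across the start. Sdhb held 1 ETS match, from -108 to -102. Atp5me, higher on 3 of 4 hyperthyroid arrays, held an NRF1 match from -76 to -67, an ETS match from -11 to -5 and a YY1 match from -183 to -176, so that these matches occurred in subunits on both sides of 0.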

How the data were processed

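RNA of 8 tibialis anterior muscles was hybridised to Affymetrix arrays as biotin-labelled cRNA made with oligo(dT) primers, per the labels' protocols. The authors deposited linear intensities, scaled per array (GCOS is named in the submitters' processing notes, with no version or settings given in the sources used here). Background correction and detection calls were not examined. Control probe sets (57) and those with no or several symbols were left out of the gene fit. Symbols are those of the platform annotation, and 43 of 44 subunits matched RefSeq by Entrez ID, COX2 being the exception.

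Values were taken as log2(intensity + 3.41), the 10th percentile, and kept above the 40th percentile of mean log2 level (4.69). The brightest kept probe set stood for a gene. Genes were fitted with limma 3.58.1 in R 4.3.3 (lmFit, eBayes with trend, prior of 6.88 degrees of freedom, two-sided), first tested on simulated data. Isoform ratios were tested by exact permutation over 70 assignments. Alternatives were other scalings, pseudocounts, filters, variance models and probe set rules, and arrays left out. All subunits are named; full array values follow a rule on roles and smallest p. Members, lists and rules were chosen with earlier results of these data known.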

Additional observations from a re-analysis of the deposited data

Results flagged for a closer look

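Across the 44 subunits and 2 isoform ratios, 92 groups of 4 arrays were examined for 1 array far from the other 3. The criterion was Dixon's ratio on log2 values above its 95% critical value. Of these groups 3 were found, where chance gives about 1 in 20 groups. The values given here are intensities. Cox7a1 was low on hyperthyroid replicate 5, at 87.7 against 387 to 452 on the others. Atp5f1c was low on the same array, at 15353 against 18353 to 19014. Atp5mg was low on control replicate 9, at 11734 against 15047 to 15654.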

How the results depend on the processing

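No subunit passed the limma threshold under any alternative apart from the robust variance, where 1 (COX2) did. Genes called over all genes, 7 in the main test, numbered 12 after centring on array medians, 114 after scaling to 18 hybridization controls, 11 with no filter, 0 with no variance trend, 14 with a robust variance, 1 with the mean of all probe sets, 1 at an adjusted p under 0.01 and 3 without both control replicates 7 and 11. With 1 array left out they ran from 0 to 7, at 0, 4, 1 and 3 without hyperthyroid replicates 3 and 2 and control replicates 7 and 9. Scaling to hybridization controls and centring on medians moved the median of all genes to 0.32 and 0.22. Relative to it the subunits' median was -0.24 in both, which a constant added to every gene cannot change. After quantile normalization the median of all genes was 0.023, and relative to it that of the subunits was -0.096.

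Medians of complexes II, III, IV and V and of all subunits were -0.13, -0.028, 0.043, 0.026 and -0.020 after centring on medians and -0.033, 0.071, 0.14, 0.12 and 0.079 after scaling to hybridization controls. After quantile normalization that of complex IV was 0.0093 and that of all subunits -0.073. With 1 array left out, the median of all subunits ran from -0.30 to -0.14.

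Single subunits turned sign as follows. Centring on medians gave Atp5f1b 0.10, Atp5f1d 0.026, Atp5mk 0.099, Atp5mpl 0.16, Atp5pd 0.15, Atp5pf 0.075, Cox5a 0.043, Cox6a1 0.082, Cox7b 0.033, Cox7c 0.062 and Uqcrc1 0.044. Hybridization controls gave Atp5f1b 0.20, Atp5f1d 0.12, Atp5mk 0.20, Atp5mpl 0.26, Atp5pd 0.25, Atp5pf 0.17, Cox5a 0.14, Cox6a1 0.18, Cox6b1 0.077, Cox6c 0.088, Cox7a1 0.061, Cox7b 0.13, Cox7c 0.16, Cox8b 0.023, Sdha 0.071, Sdhd 0.093, Uqcr10 0.069, Uqcr11 0.081, Uqcrc1 0.14, Uqcrfs1 0.073 and Uqcrh 0.077. Quantile normalization gave Atp5f1b 0.046, Atp5mk 0.10, Atp5pd 0.11, Cox6c 0.017, Cox7b 0.068 and Cox7c 0.0093. Centring on other bright genes, chosen after seeing the data, gave Atp5mpl 0.052 and Atp5pd 0.042. Without both control replicates 7 and 11, Atp5mpl was 0.033, Atp5pf 0.046, Cox4i2 -0.38 and Cox7a1 0.21. With 1 array left out, ranges crossing 0 were -0.042 to 0.15 for Atp5mf, -0.15 to 0.0041 for Atp5mpl, -0.43 to 0.59 for Cox4i2, -0.075 to 0.084 for Cox5b and -0.58 to 0.29 for Cox7a1. None of these values passed the test. The turns under both centrings and hybridization controls follow from the constant each adds to every gene (0.22, 0.12 and 0.32), and the cause of the others was not tested.

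With 1 array left out, the isoform difference ran from -0.49 to -0.36 for Cox8b over Cox8a and from -0.42 to -0.18 for Cox6a2 over Cox6a1. Both passed only without hyperthyroid replicate 2 (-0.49 and -0.42, exact permutation adjusted p = 0.0286, the minimum there). That array is the one inside the control range for Cox6a2 over Cox6a1. After quantile normalization the exact permutation adjusted p was 0.343 for Cox8b over Cox8a and 0.886 for Cox6a2 over Cox6a1. No paired analysis was possible because the groups share no replicate number. Precision is limited by 4 arrays per group, for Cox4i2 and Cox7b2 also by signal near the filter, and for Cox6c-ps1 by low intensities.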

Other observations

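Probe sets annotated to several genes, at least 1 of them a subunit by symbol, were left out of the counts above. There were 7, all past the filter. Their log2 fold changes ran from -0.36 to 0.31 with a median of -0.19, 6 of 7 were below 0, and the smallest limma adjusted p over all probe sets was 0.359.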
